A study of Mus musculus with 6 samples.

Results

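The core regulators of the integrated stress response (ISR) were followed in mouse retina after axonal injury. They comprise 10 genes, Atf3, Atf4, Atf5, Ddit3, Trib3, Chac1, Cebpb, Cebpg, Nupr1 and Asns, chosen by name from the 35485 genes of each deposited table. All 10 had a row in all 6 samples, and all 10 passed the filter on low expression (in one group or both, the mean RPKM had to exceed 0.3, where RPKM is the number of exon reads scaled to exon length and to the reads mapped in the sample). The retinas came from wild type C57BL/6 mice aged 12 weeks. In the optic nerve crush (ONC) group, the nerve was exposed and squeezed with forceps for 10 seconds at a point 2 mm behind the eye. In the sham group, the nerve was exposed and left uncrushed. Retinas were taken 2 days after surgery, and RNA from 6 retinas of 6 mice was pooled into each sample, giving 3 ONC and 3 sham samples with no uninjured, unoperated group.

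The ISR is the pathway by which cells lower protein synthesis under stress. Kinases that sense different stresses phosphorylate the translation factor eIF2, which slows most translation but favors translation of a few mRNAs, Atf4 among them. ATF4, a basic leucine zipper (bZIP) transcription factor, then turns on genes of amino acid supply, antioxidant defense and, with DDIT3 (also called CHOP), cell death. Much of this control acts on translation and protein phosphorylation, neither of which RNA-seq measures. In the retina, the axons that run in the optic nerve belong to retinal ganglion cells (RGCs), output neurons that are a small part of the tissue. In these whole retinas, a change in the number of cells of a type and a change in RNA per cell cannot be told apart.

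ATF4 pairs with C/EBP factors on a DNA element known as the C/EBP-ATF response element, whose core was searched here as TGATGNAA on both strands of the RefSeq promoter windows (250 bases before to 50 bases after each gene start, GRCm38.p6). This core lay in the windows of 5 of the 10 genes, Atf3, Trib3, Chac1, Nupr1 and Asns, against 4.51% of 27025 genes and 3.97% of 32851 windows. The cAMP response element TGACGTCA, a palindrome that shares no match with the first motif, lay in the windows of 0 of the 10 genes and of 2.03% of all genes. The 4 matches that lay before the gene start are shown 5′ to 3′ on the strand of the gene, with the matched core in capitals, because the core is the one of the motifs searched that several of these genes share.
Atf3, chr1:191183420-191183459, minus strand: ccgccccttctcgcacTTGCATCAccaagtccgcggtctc
Chac1, chr2:119351033-119351072, plus strand: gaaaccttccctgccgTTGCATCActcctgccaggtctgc
Nupr1, chr7:126625557-126625596, minus strand: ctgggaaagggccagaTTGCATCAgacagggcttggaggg
Asns, chr6:7693210-7693248, minus strand: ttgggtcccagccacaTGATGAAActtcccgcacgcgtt
The core began at position −110 from the gene start in both Atf3 and Nupr1, at −193 in Chac1 and at −23 in Asns. In Atf3, Chac1 and Nupr1, the same 8 letters, TTGCATCA, were found, which are the reverse complement of the motif. In Trib3, the match TTACATCA began 14 bases after the first base of the transcript. A match in these letters is a description of the sequence and was not tested for binding.

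Each sample held 17343945 to 20358008 exon reads, and exon reads made up 70.9% to 76.6% of all gene reads in the sham samples and 78.5% to 80.4% in the ONC samples. Rod and cone genes were abundant in every sample. Their 8 markers summed to 18249 to 19005 RPKM in the sham samples and 20005 to 21248 in the ONC samples, and Sag (log2 fold change 0.39) and Pde6b (0.18) were higher at an adjusted p under 0.1. Of 9 RGC markers, 8 were lower after ONC and 1, Slc17a6, was higher, at an adjusted p under 0.1. Their summed RPKM was 432 to 451 in the sham samples and 320 to 337 in the ONC samples. The 9 microglia and macrophage markers summed to 11.4 to 15.5 RPKM in the sham samples and 20.7 to 24.6 in the ONC samples, with Itgam, Cd68 and C1qa past the threshold. Sham 1 stood apart from the other sham samples in lens genes (summed RPKM of 29.2 against 5.27 and 6.39) and in blood genes (170 against 87.1 and 75.1). Lens genes were 29.0 to 36.7 RPKM in the ONC samples, where Cryaa was higher, and blood genes were 55.4 to 78.5 RPKM, where Hba-a1 was lower. ONC 1 differed most from other samples of its group (chi-square per degree of freedom of 13.7 and 10.8 against 4.54 between ONC 2 and ONC 3). No RGC or microglia marker was at 0 in any sample, whereas the lens gene Lim2 was listed at 0 in sham 3 and the blood gene Slc4a1 in sham 2, ONC 1 and ONC 3. The part of cell types, lens or blood in the results that follow was not tested.

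Of the 10 genes, 7 were higher after ONC at an adjusted p under 0.1 (edgeR quasi-likelihood test on exon reads, Benjamini-Hochberg over 13670 genes). These were Atf3, Atf4, Atf5, Ddit3, Trib3, Chac1 and Asns, and none of the 10 was lower. Across all genes tested, 2.38% were higher and 3.72% were lower by the same rule. This balance depended on the scale. With the divisor of the RPKM values, 11.0% of all genes were higher and 1.63% were lower, and 9 of the 10 genes were higher. Of the 7, all but Atf4 (6 genes) also had a fold change above 1.5 and were differentially expressed genes (DEGs), a class that held 0.827% of all genes in this direction. Cebpb, Cebpg and Nupr1 did not pass. The median log2 fold change of the 10 genes was 0.96, against 0.01 over all genes tested. By normalized counts, 8 of the 10 had all 3 ONC samples above all 3 sham samples, which held for 11.0% of all genes. These genes are known to answer to the same pathway, so they are not independent observations. The paper had already reported Atf3, Atf4, Atf5, Ddit3, Trib3 and Chac1 as higher in these same samples, and had Asns among its DEGs. It also reported Atf3, Atf5 and Ddit3 as higher by RT-PCR in other retinas. Its pathway analysis of the DEGs predicted ATF4 as the most significant upstream regulator. The contrast with all genes is therefore a description.

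**Figure D1:**
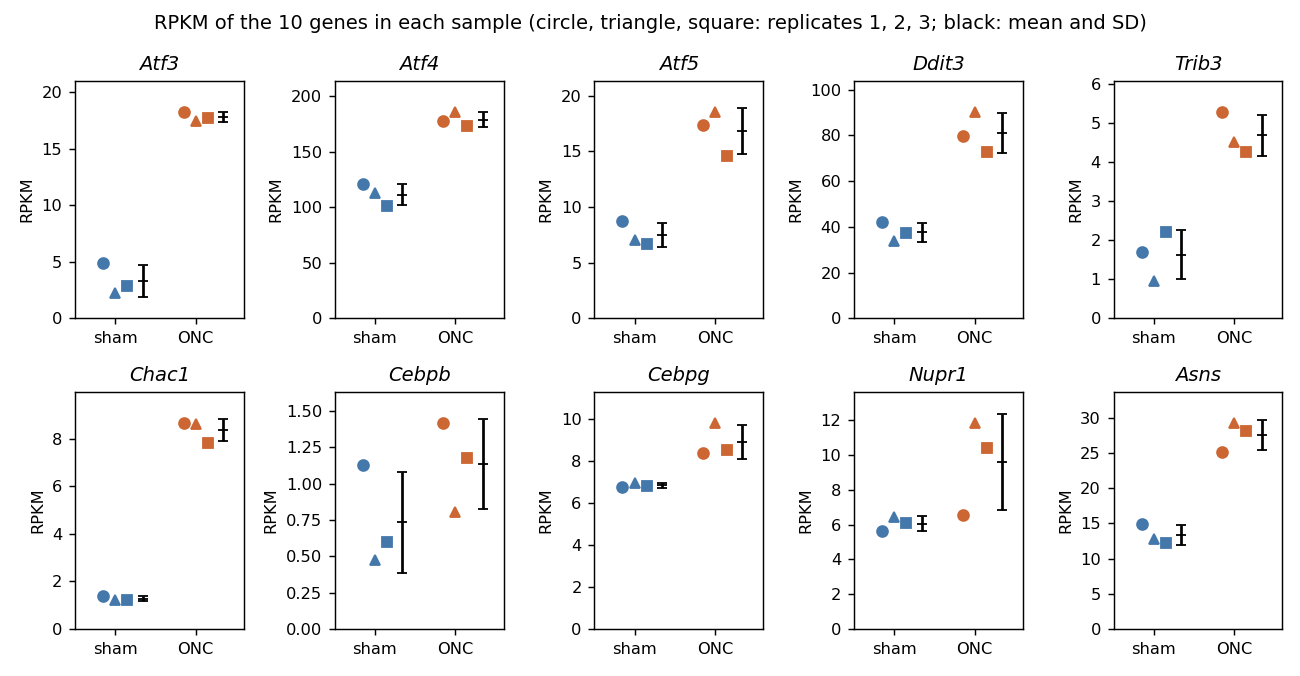
RPKM (vertical axes, linear from 0) of each of the 10 genes in the 3 sham (blue) and 3 ONC (orange) samples, with the group mean and SD in black. The groups lie apart in all genes but Cebpb, and in Nupr1 the ONC 1 sample, at 6.57, lies next to the highest sham sample, at 6.47.

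Atf4, on chromosome 15 (80255184 to 80257541, 3 exons, GRCm38), encodes the central transcription factor of the pathway. It had the highest RPKM of the 10 genes in every sample, with 120, 112 and 101 RPKM in sham 1 to 3 and 178, 186 and 173 RPKM in ONC 1 to 3. The lowest ONC sample lay above the highest sham sample. Its exon reads rose by 0.56 ± 0.06 on the log2 scale (SE, n = 3 per group, adjusted p = 2.73e-06 by edgeR), just under the fold threshold for a DEG, which is 0.58 on this scale. In RPKM, the group means were 111 ± 9.70 and 179 ± 6.53 (SD), a ratio of 1.61. The ratio of RPKM exceeds the fold change in counts, 1.48, because the RPKM of these files is scaled to exon and intron reads together, and the share of intron reads was lower after ONC. That division moved the median log2 fold change of all genes from 0.01 to 0.13, and under it Atf4 was a DEG, with a log2 fold change of 0.68.

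Atf3 (chromosome 1, 191170296 to 191183333, 4 exons) encodes a bZIP factor that ATF4 and other stress pathways induce and that is widely used as a mark of injured neurons. It had 224, 105 and 138 exon reads in the sham samples and 914, 858 and 909 in the ONC samples. The ONC samples differed little among themselves, whereas sham 1 held about as many reads as the other two sham samples together. The log2 fold change was 2.30 ± 0.18 (SE, 95% interval 1.93 to 2.68, adjusted p = 7.95e-08 by edgeR). Mean RPKM was 3.33 ± 1.42 in the sham group and 17.8 ± 0.421 in the ONC group (SD, n = 3). Sham 1 was also the sham sample with the most lens and blood RNA. Without it, the log2 fold change of Atf3 was 2.66.

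Ddit3 (chromosome 10, 127290793 to 127296288, 4 exons) encodes CHOP, a bZIP factor linked to cell death under lasting stress. RPKM was 42.0, 33.7 and 37.2 in the sham samples and 79.8, 90.2 and 72.9 in the ONC samples, with no overlap. The log2 fold change in exon reads was 0.98 ± 0.09 (SE, 95% interval 0.79 to 1.17, adjusted p = 1.08e-06 by edgeR). It was the second most highly expressed of the 10 genes in both groups. The gene as counted overlaps Mars by 68 bases, and reads there could belong to either gene.

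Atf5 (chromosome 7, 44812256 to 44816658, 3 exons) encodes a relative of ATF4 whose translation is controlled in a similar way. Its RPKM was 8.75, 7.07 and 6.68 in the sham samples and 17.3, 18.5 and 14.5 in the ONC samples. All ONC samples lay above all sham samples, and exon reads rose by 1.04 ± 0.12 on the log2 scale (SE, adjusted p = 1.3e-05 by edgeR). Atf5 overlaps Nup62 by 239 bases and Nup62-il4i1 by 289 bases, so some of its reads could come from those genes.

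Chac1 and Asns are target genes that act in metabolism. Chac1 (chromosome 2, 119351242 to 119354326, 3 exons) encodes an enzyme that breaks down glutathione. It had 50, 45 and 47 exon reads in the sham samples and 345, 337 and 319 in the ONC samples. Replicates were close in both groups, and the fold change was the largest of the 10 genes, except that Atf3 exceeded it without sham 1 (2.66 against 2.64 on the log2 scale) and with limma on log2(RPKM + 1) (2.17 against 2.05). Its log2 fold change was 2.60 ± 0.17 (SE, 95% interval 2.24 to 2.96, adjusted p = 1.67e-08 by edgeR), which placed it in place 3 by p-value among the 13670 genes tested. Mean RPKM went from 1.27 ± 0.102 to 8.39 ± 0.475 (SD, n = 3).

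Asns (chromosome 6, 7675171 to 7693182, 12 exons) encodes asparagine synthetase. Its RPKM was 14.9, 12.7 and 12.3 in the sham samples and 25.2, 29.3 and 28.2 in the ONC samples. The groups did not overlap, and exon reads rose by 0.93 ± 0.09 on the log2 scale (SE, 95% interval 0.75 to 1.11, adjusted p = 1.08e-06 by edgeR).

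Trib3 and Nupr1 are targets that feed back on the response. Trib3 (chromosome 2, 152337425 to 152344060, 4 exons) encodes a pseudokinase that binds ATF4 and restrains its activity. It had 80, 47 and 111 exon reads in the sham samples and 274, 230 and 227 in the ONC samples. Despite the spread among sham samples (a coefficient of variation of 38.9% in RPKM), the lowest ONC sample lay above the highest sham sample. The log2 fold change was 1.40 ± 0.24 (SE, 95% interval 0.89 to 1.90, adjusted p = 0.00122 by edgeR).

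Nupr1 (chromosome 7, 126623246 to 126625470, 3 exons) encodes a small stress-induced nuclear protein. It had 81, 97 and 93 exon reads in the sham samples and 104, 185 and 169 in the ONC samples. ONC 2 and ONC 3 lay above the sham samples, whereas ONC 1 lay within their range by normalized counts. The log2 fold change of 0.54 ± 0.22 (SE, 95% interval 0.07 to 1.0) did not pass, with an adjusted p of 0.219 by edgeR. Without ONC 1, it was 0.74, with an adjusted p of 0.0229.

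The C/EBP factors, which pair with ATF4 on DNA, made up the other genes that did not pass. Cebpg (chromosome 7, 35046422 to 35056566, 2 exons) encodes a C/EBP protein that acts with ATF4 on amino acid genes. Its RPKM was 6.75, 6.98 and 6.84 in the sham samples and 8.40, 9.85 and 8.54 in the ONC samples. Although the groups did not overlap, the log2 fold change in exon reads was 0.26 ± 0.08 (SE, 95% interval 0.08 to 0.43), with an adjusted p of 0.107 by edgeR, just short of the threshold. Cebpg passed when ONC 1 was left out (log2 fold change 0.28, adjusted p = 0.0398 by edgeR), with the RPKM divisor (0.38, adjusted p = 0.0172), and under further settings.

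Cebpb (chromosome 2, 167688915 to 167690418, 1 exon) encodes a C/EBP factor of inflammation and stress and was the least expressed of the 10 genes in mean RPKM in both groups. It had 39, 17 and 22 exon reads in the sham samples and 54, 30 and 46 in the ONC samples, and the groups overlapped. With so few reads, a log2 fold change of 0.52 had a 95% interval of −0.37 to 1.41 (adjusted p = 0.58 by edgeR), which includes 0. Sham 1 was again the highest sham sample.

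Per kilobase of exon, mean RPKM in the sham group fell in the order Atf4, Ddit3, Asns, Atf5, Cebpg, Nupr1, Atf3, Trib3, Chac1 and Cebpb. The 3 values of neighboring genes overlapped only for Atf5 with Cebpg and for Trib3 with Chac1. In the ONC group the order was Atf4, Ddit3, Asns, Atf3, Atf5, Nupr1, Cebpg, Chac1, Trib3 and Cebpb, with overlap between Atf3 and Atf5, between Nupr1 and Cebpg, and between Cebpg and Chac1. Atf3 thus moved from the seventh to the fourth place, while the first 3 places and the last were the same. The summed RPKM of the 10 genes was 177 to 208 in the sham samples and 338 to 377 in the ONC samples. Atf4 gave the largest difference in RPKM between group means, 67.4, and Ddit3 the next, 43.3, although both had smaller fold changes than Chac1 and Atf3.

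Reads in introns can come from unspliced RNA and were counted here as gene reads minus exon reads, whatever their source. One gene, Esp38, alone held 708414 to 1193154 of the 5545794 to 7131984 intron reads of a sham sample. In the ONC samples it held 391987 to 677883 of 4866867 to 5582782. Its part in the intron shares and in the RPKM divisor was not tested. Enough intron reads for a test (a mean of at least 10 per sample) were present in 6 of the 10 genes. Of these 6, only Asns passed, against 0.511% of 13317 genes that were higher by the same rule. Asns had 25, 34 and 22 intron reads in the sham samples and 65, 73 and 92 in the ONC samples, with no overlap. The log2 fold change of its intron reads was 1.52 ± 0.33 (SE, adjusted p = 0.064 by edgeR). The call was lost without sham 2, sham 3, ONC 2 or ONC 3 (adjusted p of 0.12, 0.144, 0.318 and 0.195), with log2 fold changes of 1.36 to 1.72. In the same fits, 0, 91, 0 and 1 of all 13317 genes passed, against 383 with all 6 samples.

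Ddit3 had the most intron reads, 243, 223 and 208 in the sham samples and 342, 347 and 301 in the ONC samples. The groups did not overlap, but the log2 fold change of 0.60 ± 0.19 (SE) had an adjusted p of 0.134 by edgeR. Intron reads were 22.4%, 24.1% and 20.8% of the Ddit3 reads in the sham samples and 16.3%, 15.1% and 15.5% in the ONC samples. The share was lower in every ONC sample, as was the share of intron reads over all genes.

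Atf3 had 17, 21 and 11 intron reads in the sham samples and 18, 26 and 34 in the ONC samples, which overlapped as raw reads. Scaled to the intron reads of each sample, they did not overlap, with a highest sham value of 3.73 and a lowest ONC value of 3.80 normalized counts (CPM). By this measure 4 of the 6 genes, Atf3, Atf5, Ddit3 and Asns, had all ONC samples above all sham samples, as did 11.3% of all genes tested. The intron change of Atf3, 0.67 ± 0.52 on the log2 scale (SE), did not pass (adjusted p = 0.542 by edgeR), with a 95% interval of −0.44 to 1.77. Trib3 (0.67, adjusted p = 0.507) and Atf5 (0.89, adjusted p = 0.242) did not pass in intron reads by edgeR. Cebpg had an intron log2 fold change of −0.01 with an adjusted p of 0.994. Many of the intron reads counted for Atf5 were not unique, with 1, 26 and 50 unique of 53, 63 and 99 in the ONC samples. The intron results above are scaled to intron reads alone and depend on that scale. With library sizes of the exon reads, the median intron log2 fold change of all genes was −0.22, against 0.03. The intron changes were then 1.29 in Asns, 0.69 in Atf5, 0.45 in Atf3 and 0.34 in Ddit3, with 0.46 in Trib3 and −0.22 in Cebpg. Only Asns passed, and overlap between groups on that scale was not counted.

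**Figure D2:**
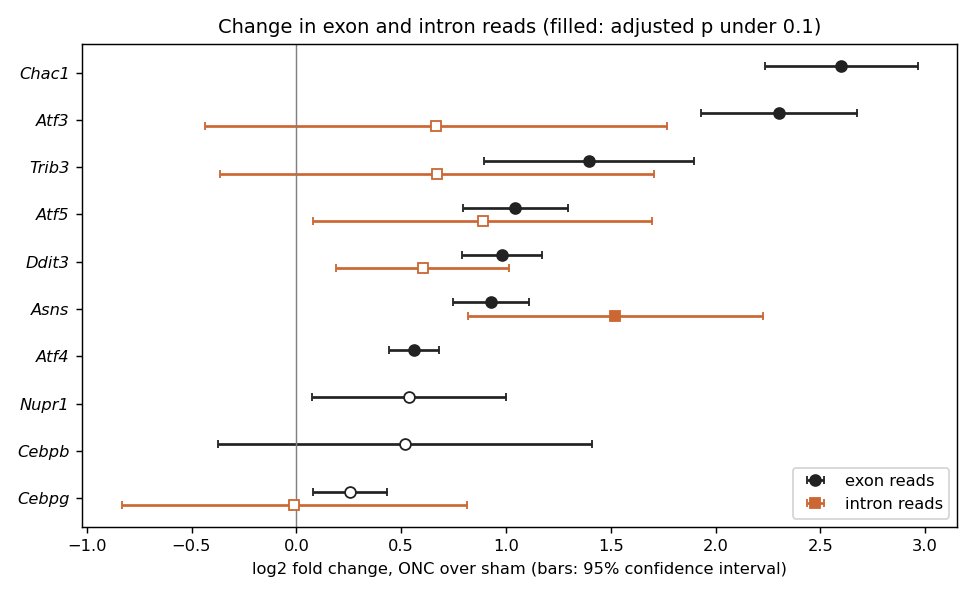
Log2 fold change (horizontal axis, ONC over sham) of exon reads (black circles) and intron reads (orange squares) with 95% confidence intervals, filled where the adjusted p was under 0.1. Exon intervals of Chac1 and Atf3 lie farthest to the right, and the intron intervals are wider than the exon intervals of the same genes.

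The change in exon reads was tested against the change in intron reads of the same gene. Library sizes were set within exon reads and within intron reads separately. The lower share of intron reads over all genes after ONC is therefore scaled out of these differences. None of the 6 genes passed (0.0353% of 11324 genes did), although 2 of the 6, Atf3 and Asns, had an unadjusted p under 0.05, as did 13.6% of all genes. The exon change of Atf3 exceeded its intron change by 1.66 ± 0.45 on the log2 scale (SE, adjusted p = 0.173 by edgeR). In Asns, the exon change was smaller than the intron change, by −0.62 ± 0.28 (SE, adjusted p = 0.364 by edgeR). For Ddit3 the difference was 0.37 ± 0.20 (SE, adjusted p = 0.446 by edgeR). Intron reads of Chac1 totalled 1 over all 6 samples, so its exon change could not be set against introns.

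**Figure D3:**
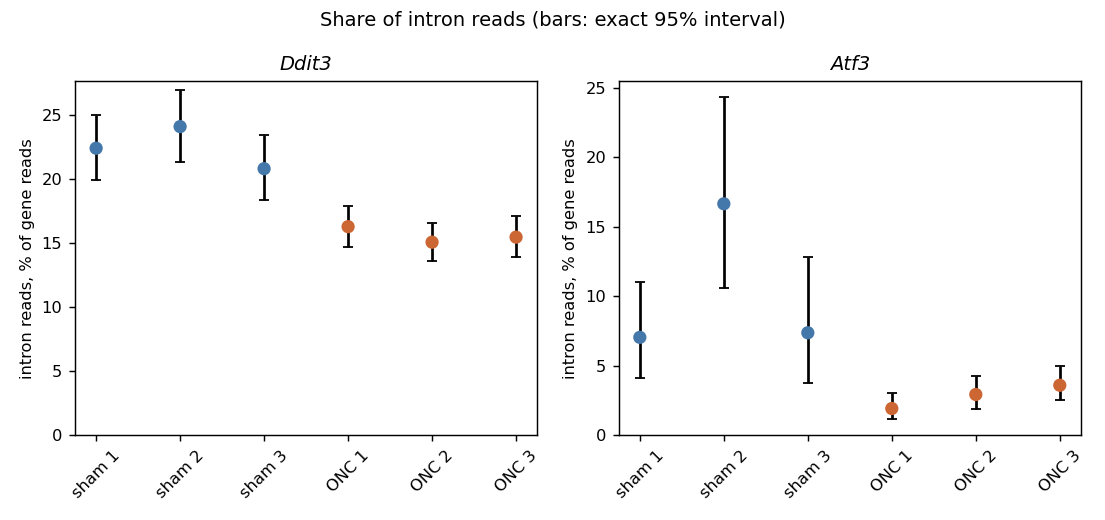
Intron reads as a percentage of all reads of Ddit3 (left) and Atf3 (right) in each sample, with exact 95% binomial intervals that cover counting error only. Every ONC sample lies below every sham sample in both genes, from 15.1% to 16.3% in Ddit3 and from 1.93% to 3.61% in Atf3. The share of intron reads over all genes together was also lower in every ONC sample. How many single genes showed no overlap in this share was not counted, so the 2 genes are a description. In Atf5, Trib3, Cebpg and Asns, which are not shown, the shares of the 2 groups overlapped.

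Genes upstream of ATF4 were examined next. None of the 4 eIF2 kinases, which start the response, passed in either direction. Over all genes tested, 2.38% were higher and 3.72% lower. In lists this small, 0 genes passed is near those shares and is no result about upstream genes. Their log2 fold changes were −0.11 for Eif2ak1 (HRI, the heme-regulated kinase), −0.27 for Eif2ak2 (PKR, which binds double-stranded RNA), 0.13 for Eif2ak3 (PERK, the kinase of the endoplasmic reticulum) and 0.14 for Eif2ak4 (GCN2, the sensor of amino acid shortage). In RPKM, Eif2ak1 had a mean of 11.1 in both groups. By normalized counts, 5 of 8 subunits of eIF2 and its exchange factor eIF2B had all ONC samples above all sham samples. This held for 11.0% of all genes and for 0 of the 4 kinases. Of the 8 subunits, 1 passed. This was Eif2s2, the beta subunit of eIF2, with RPKM of 23.2, 22.9 and 21.2 in the sham samples and 33.2, 33.4 and 32.4 in the ONC samples. Its log2 fold change was 0.44 ± 0.06 (SE, adjusted p = 0.000252 by edgeR). None of the 7 genes listed as eIF2alpha phosphatase regulators passed, again near the shares over all genes. This list also held the phosphatase catalytic subunits Ppp1ca, Ppp1cb and Ppp1cc, and Dnajc3, an inhibitor of eIF2 kinases. The regulator Ppp1r15a (GADD34), itself an ISR target, had a log2 fold change of 0.32 with an adjusted p of 0.142 by edgeR.

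The ATF4 target genes outside the 10 moved mostly in one direction. Of 34 listed genes, 32 had enough reads to be tested, and 21 of these were higher and 0 lower after ONC. The share over all genes was 2.38% higher and 3.72% lower. Many of the listed genes were already among the DEGs of the paper. These include Aars, Cdkn1a, Gars, Mthfd2, Phgdh, Psat1, Sars, Sesn2, Shmt2, Slc7a3 and Slc7a5. The paper listed all of these but Phgdh and Sesn2 as targets of ATF4, so this contrast too is a description. Of the 32, 11 were DEGs, and the median log2 fold change was 0.52. By normalized counts, all ONC samples lay above all sham samples in 27 of the 32, against 11.0% of all genes. The genes that passed included the serine synthesis enzymes Phgdh and Psat1, the amino acid transporters Slc7a1, Slc7a3, Slc7a5 and Slc7a11, and the tRNA synthetases Aars, Gars, Sars and Nars. Among those that did not pass, some were near 0, with log2 fold changes of 0.09 for Ddit4, −0.06 for Vldlr and −0.08 for Vegfa. Others had larger positive changes on few reads, with 0.86 for Eif4ebp1 and 0.71 for Stc2. Gdf15, with 4 to 10 exon reads in the sham samples and 19 to 34 in the ONC samples, had an adjusted p of 0.132 by edgeR. The serine synthesis gene Psph (0.36, adjusted p = 0.166 by edgeR) and the tRNA synthetase Wars (0.19, adjusted p = 0.153) did not pass either.

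Phgdh, the first enzyme of serine synthesis, had RPKM of 3.77, 1.87 and 2.42 in the sham samples and 10.6, 11.9 and 10.5 in the ONC samples, a log2 fold change of 1.91 ± 0.18 (SE, adjusted p = 1.1e-06 by edgeR). Cdkn1a, the cell cycle inhibitor p21 and also a target of p53, had RPKM of 1.63, 1.22 and 1.39 in the sham samples and 5.27, 6.57 and 5.25 in the ONC samples. Its log2 fold change was 1.89 ± 0.18 (SE, adjusted p = 1.47e-06 by edgeR). Slc7a3, a transporter of cationic amino acids, had a log2 fold change of 1.32 ± 0.21 (SE, adjusted p = 0.00064 by edgeR). In these genes too, no ONC sample fell within the sham range. Adm2, a peptide hormone of the calcitonin family, was close to absent in the sham samples (1, 0 and 0 exon reads) and had 12, 19 and 10 exon reads after ONC. The ratio of its normalized reads was 35.3, with a 95% counting interval of 6.00 to 1429, and its adjusted p was 0.0225 by edgeR. Adm2 and Gdf15 passed the filter on RPKM only through the ONC group, where they were higher, so the test of Adm2 is given as a description. Without both, 20 of 30 genes were higher, 10 were DEGs and the median log2 fold change was 0.50.

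A list of other factors of the bZIP family, to which the ATF and C/EBP proteins belong, was also compared. It held Cebpz as well, which is named after C/EBP but is not a bZIP factor (log2 fold change 0.15, not passed). Of 31 tested, 1 was higher and 1 was lower, close to the shares over all genes (2.38% and 3.72%), and the median log2 fold change was 0.02. Jun, an AP-1 factor that can pair with ATF3, was the higher one. It had RPKM of 10.3, 8.91 and 8.46 in the sham samples and 18.0, 18.3 and 19.0 in the ONC samples, a log2 fold change of 0.88 ± 0.08 (SE, adjusted p = 8.12e-07 by edgeR). Hlf, a PAR bZIP factor, was lower by a small amount, with a log2 fold change of −0.20 ± 0.06 (SE, adjusted p = 0.0591 by edgeR). In RPKM, its means of 30.8 ± 2.10 in the sham group and 29.1 ± 0.784 in the ONC group (SD, n = 3) differed by less than the SD of the sham group.

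Close relatives of the non-bZIP genes were also compared. Of Trib1, Trib2, Chac2 and Asnsd1, none passed, with log2 fold changes of 0.11, 0.09, 0.24 and 0.17. Whether these differed from Trib3, Chac1 and Asns was not tested.

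**Figure D4:**
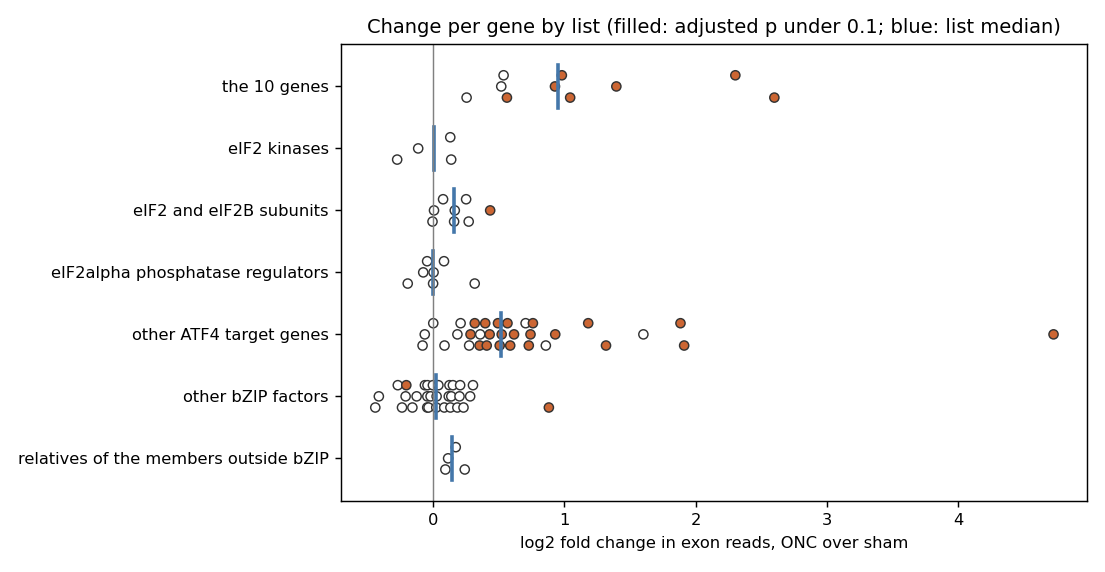
Log2 fold change in exon reads (horizontal axis, ONC over sham) of each tested gene, by list, filled where the adjusted p was under 0.1, with the list median in blue. The 10 genes (median 0.96) and the other ATF4 target genes (median 0.52) lie mostly to the right of 0, as do the eIF2 and eIF2B subunits (median 0.16, 7 of 8 above 0) and the relatives (median 0.14, 4 of 4 above 0), where 1 gene and no gene passed. The point farthest to the right is Adm2, which had 1 exon read in all sham samples together.

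Genes whose pattern over the 6 samples was most like that of the 10 genes were sought among 11966 genes with a mean RPKM above 1. The measure was Pearson's r to the mean of the 10 genes, each on the log2 scale and scaled to the same spread. The 5 highest were Tars, a tRNA synthetase (r = 0.998), Cdkn1a (0.998), Rhoq, a small GTPase (0.998), Camk1, a calcium-dependent kinase (0.995), and Stmn4, a stathmin that binds tubulin (0.994). With 6 samples in 2 groups, r mostly reflects the difference between the groups and is given as a description. Stmn4 had RPKM of 16.0, 11.9 and 12.2 in the sham samples and 36.4, 38.3 and 37.0 in the ONC samples. Like Atf3, it was highest in sham 1 among the sham samples.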

How the data were processed

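The 6 samples were grouped by their treatment labels (NC in a title stands for a crushed nerve). The authors mapped paired reads from TruSeq libraries with CLC Genomics Workbench, allowing at most 2 mismatches, and deposited raw counts of exon reads and gene reads, and RPKM values. The strand setting of the counting is not given in the sources used here. The submitters named mm9, but the positions match GRCm38: all 10 genes were found in RefSeq, 6 with identical ends and the others within 27 bases. Sequences are from RefSeq.

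Exon reads were tested with edgeR 4.0.16 (TMM, quasi-likelihood, R 4.3.3) over the 13670 genes whose mean RPKM exceeded 0.3 in one group or both. The model held condition alone, and p-values were adjusted by Benjamini-Hochberg. The paper's thresholds were kept (adjusted p under 0.1, fold change above 1.5). The count test replaced its test on RPKM. Intron reads were tested in the same way over 13317 genes, and exon against intron changes with each sample as a block over 11324 genes. Tests were checked on simulated data. The biological coefficient of variation was 9.17% for exon and 23.2% for intron reads. All exon reads of the 10 genes were unique. The p-values measure the spread between pools of 6 retinas. Intervals on shares cover counting error only. The marker lists for Müller glia (8 genes) and pigment epithelium (5 genes) had 0 members past the threshold.

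Named genes were all 10 genes, the eIF2 kinases, at most 4 genes of each other list with the largest change among those past the threshold, and the 5 genes of most similar pattern. Other genes were named after their values were seen. The 10 genes and the lists were chosen with earlier results of these data known. DESeq2 1.42.0, limma 3.58.1, other scalings, filters, unique reads, a replicate block and the omission of each sample were tried as alternatives. Python 3.11.15, numpy 2.4.6, pandas 2.3.3, scipy 1.17.1 and matplotlib 3.10.9 were used. The column of group means in the files was not used.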

Additional observations from a re-analysis of the deposited data

How the results depend on the processing

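In exon reads, the 7 genes that passed did so under each of the 15 alternatives and at an adjusted p under 0.05. All 10 genes had a positive log2 fold change in each. The number that passed was 7 to 9, and the number of DEGs was 6 to 8 (counts of DEGs and of ATF4 targets under the alternatives were added after seeing the data). Besides the settings given above, Cebpg passed with limma on log2(RPKM + 0.1) or log2(RPKM + 1) (0.37 and 0.33) and with no RPKM filter (0.26), and Nupr1 with the RPKM divisor (0.67) and with both limma settings (0.62 and 0.56). Without sham 1, Atf4 was a DEG (0.60). The other ATF4 targets that passed numbered 18 to 24. The number of all genes that passed, 833, was 371, 400, 435 and 452 without sham 2, sham 3, ONC 2 and ONC 3, 2031 without ONC 1 and 1730 (1507 higher, 223 lower) with the RPKM divisor. The cause was not tested.

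In intron reads, the number of genes of the 10 that passed went from 1 to 2 with no filter and was 0 to 2 when single samples were left out. Ddit3 passed with no filter, without sham 1 (adjusted p of 0.0544 and 0.0911 by edgeR) and by DESeq2 (0.0839), which gave no adjusted p for the other 5 genes. Cebpg, near 0, changed sign in intron reads with at least 50 reads (0.009), unique reads (0.0001) and the replicate block (0.10), and ranged from −0.35 to 0.34 when single samples were left out. When single samples were left out, the differences between exon and intron changes of Atf5 and Cebpg ranged from −0.15 to 0.44 and from −0.15 to 0.62, and with unique reads that of Atf5 was 0.66. The cause was not tested.

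Samples that shared a replicate number did not deviate together (r of −0.0473, −0.0337 and 0.00211 over genes). With the number as a block, 7 of the 10 genes passed in exon reads and 1 in intron reads, and 728 genes passed in all. Cebpb had 17 to 54 exon reads per sample, and 4 of the 10 genes could not be tested in intron reads. Of these, Cebpb has 1 exon and no intron, while Atf4, Chac1 and Nupr1 had too few intron reads.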

Other observations

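Reads that span a splice junction were deposited in a further column, which entered no test. In Chac1, such reads made up 3.48% of 345 exon reads in ONC 1 (exact 95% binomial interval 1.81% to 6.00%), but 15.4% of 337 in ONC 2 and 14.4% of 319 in ONC 3. In the sham samples, 10 of 50, 2 of 45 and 5 of 47 exon reads spanned a junction, a share of 4.44% in sham 2 (0.543% to 15.1%), so the value of ONC 1 was near that of sham 2. The RPKM of Chac1 in ONC 1, 8.69, was nevertheless the highest of the 3 ONC samples. In Atf3, the junction share was 33.5% in sham 1, the sham sample with the most Atf3 reads, against 17.1% and 20.3% in sham 2 and sham 3 and 21.2% to 22.8% in the ONC samples. In Ddit3, junction reads were 47.5% to 51.4% of exon reads in the sham samples and 44.0% to 44.5% in the ONC samples, with no overlap, while the share over all genes was 42.0% to 43.1% across the 6 samples. These shares compare samples and were not tested between groups. The number of all genes with no overlap in junction share was not counted.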
